A study of Coprinopsis cinerea with 29 samples.

Results

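A group of 236 gene models of the mushroom Coprinopsis cinerea had more transcript in the mature cap with its lamellae than in the young cap, and less in the mature stipe than in the young stipe. They were found among the 12003 gene models of the deposited table of log2 RPKM. RPKM is a read count scaled to the length of the gene model and to the size of the library. The deposited values matched a library size adjusted by TMM factors, which bring the bulk of gene models to a like level between libraries. Each value was turned into log2(RPKM + 1) and the median was taken per group. A member had a cap difference (mature minus young) of at least 1, a stipe difference (mature minus young) of -1 or less, and a highest group median less than 1.5 above the second highest. The members were thus chosen by measured values, the group medians of log2(RPKM + 1), and those values are given as a description, with no test.

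C. cinerea, the grey shag, fruits on agar and passes from a feeding mycelium through hyphal knots and primordia to a fruiting body. The stipe carries the cap upward by elongating late in development, and the lamellae, the gills under the cap, bear the cells in which meiosis takes place and spores form. After the spores are shed the mature cap digests itself and drips away as an inky fluid.

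Polyadenylated RNA was sequenced from 29 libraries in 9 groups, all of strain #326, whose label lists the alleles A43mut, B43mut and pab 1-1. The mutations in both mating-type factors let it fruit without a mate. Every culture was grown on YMG/T agar, first darkened at 37 °C (5 days) and afterwards kept at 25 °C for a week, with light and darkness alternating every 12 h. The groups were vegetative mycelium (VM, n = 3), secondary hyphal knots (H, n = 3), stage 1 and stage 2 primordia (P1 and P2, n = 4 each), cap, lamellae and stipe of the young fruiting body (YFB_C, YFB_L and YFB_S, n = 3 each), and cap with lamellae and stipe of the fruiting body (FB_CL and FB_S, n = 3 each). The mature cap was thus taken with its lamellae and the young cap without them, and the primordia were not divided by tissue. The series calls the samples biological replicates, and the labels name no culture, so p-values measure the spread between these libraries.

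Libraries held 10736371 to 32199674 counted reads. The files pair the identifiers with no gene name, product, sequence or position, and 0 of 14242 matched a RefSeq table of 13657 genes from another strain. Gene models are therefore named by number with no statement of what they encode, and the labelled tissues could not be checked against marker genes. YFB_C replicate 3 and YFB_L replicate 1 stood apart from their groups. Across gene models, YFB_C replicate 3 correlated with its group at 0.925 at most and YFB_L replicate 1 at 0.886 at most, against 0.984 and 0.987 between the other libraries of these groups. Without both, the rule found 236 members, 222 of them the same.

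Of the 12003 gene models, 2812 met the cap criterion, 2539 met the stipe criterion and 281 met both. The limit on the highest group set aside 45 of the 281, of which 36 were highest in the mature cap with lamellae. The 2 members closest to the cap threshold had differences of 1.007 and 1.011, and the 2 gene models just outside it had 0.998 and 0.988. At the stipe threshold the values were -1.001 and -1.004 inside and -0.998 and -0.996 outside. At the limit on the highest group they were 1.499 and 1.470 inside and 1.504 and 1.532 outside. No gap separated members from other gene models at any of these limits.

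**Figure D1:**
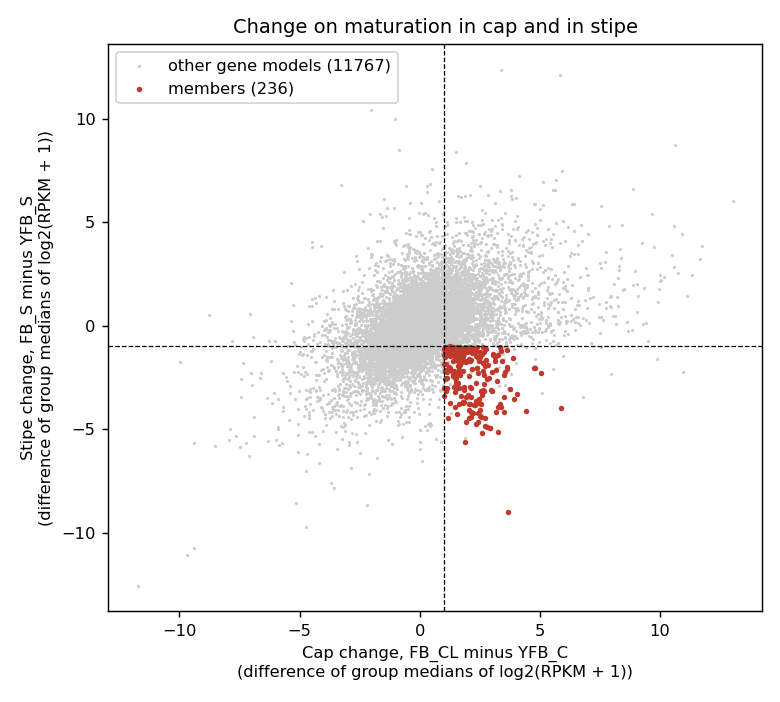
Each point is 1 gene model, with the cap difference (FB_CL minus YFB_C) on the horizontal axis and the stipe difference (FB_S minus YFB_S) on the vertical axis, both as differences of group medians of log2(RPKM + 1). The 236 members, in red, lie right of and below the dashed thresholds by construction, and grey points in that corner were set aside by the limit on the highest group.

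The cap difference of the members had a median of 1.93 on the log2(RPKM + 1) scale (quartiles 1.47 and 2.58, highest 5.90), and the stipe difference a median of -1.95 (quartiles -3.15 and -1.31, lowest -8.99). Over all gene models the medians were 0.00 and 0.01. All 236 had enough reads to be tested with edgeR's quasi-likelihood test on the read counts. A gene model was called when its adjusted p was under 0.05 and it changed by 2-fold or more. Of the members 219 were called higher in FB_CL than in YFB_C (background 23.1% of the 11990 gene models tested, or 48.1% in either direction) and 216 lower in FB_S than in YFB_S (background 23.5%, or 46.6% in either direction), and 203 passed both (background 2.59%). Since the rule used both contrasts, these counts only describe the members. Scaled by library size alone, in place of TMM factors, 135 members were called higher and 1 lower in FB_CL, beside 1670 and 4873 of all gene models, and the median log2 change of all gene models was -0.78 in place of -0.09. In a bulk sample, fewer cells of a type and less RNA per cell cannot be told apart.

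Members took 1.49%, 1.57% and 1.54% of all reads in the FB_CL libraries, against 0.840%, 0.719% and 0.594% in the YFB_C libraries. In the stipe they took 0.364%, 0.312% and 0.376% in the FB_S libraries, against 2.80%, 2.17% and 2.37% in the YFB_S libraries. The groups did not overlap in either part. Since the rule chose members by their medians in these groups, this is a description, and a share of reads is itself a scaling by library size. The share was higher still in young lamellae, at 5.08% ± 1.15 (SD, n = 3), and in mycelium, at 6.40% ± 0.773 (SD, n = 3). Knots and primordia were also higher, with means of 3.89% in H, 4.10% in P1 and 4.61% in P2.

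The median log2(RPKM + 1) over the members was 6.12 ± 0.17 in FB_CL and 3.86 ± 0.46 in YFB_C, and 3.09 ± 0.10 in FB_S and 5.59 ± 0.24 in YFB_S (SD over libraries, n = 3 each). The 3 YFB_C libraries differed among themselves, with 4.29, 3.92 and 3.38, the lowest being the library that stood apart. In VM, H, P1 and P2 the group means ran from 5.09 to 5.22, and in YFB_L the mean was 5.65 ± 0.23 (SD, n = 3). The level in earlier stages thus lay between the young and the mature cap. The median over all gene models stayed between 3.78 and 4.12 in every library, a steadiness that the TMM scaling of these values itself favours.

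**Figure D2:**
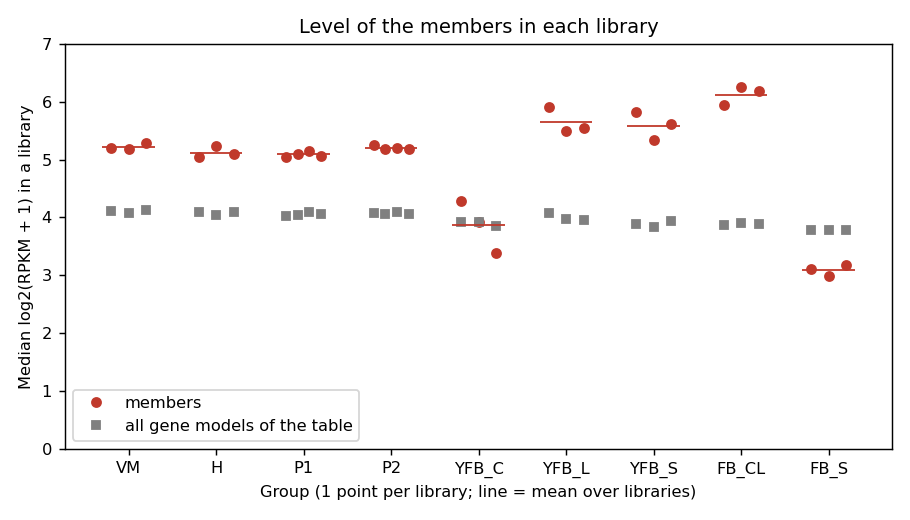
Median log2(RPKM + 1) over the 236 members (red circles, line at the mean over libraries) and over all gene models of the table (grey squares), 1 point per library, for the 9 groups in the order of development. The members' medians are lowest in FB_S (2.98 to 3.17) and YFB_C (3.38 to 4.29) and highest in FB_CL (5.94 to 6.25).

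The members with the largest change in both parts, by the smaller of both differences, were 415876 and 445891. Gene model 415876, 2182 bases long, had 47.7, 87.2 and 71.1 RPKM in FB_CL, against 2.93, 2.38 and 0.929 RPKM in YFB_C. In the stipe it had 5.43, 4.36 and 3.97 RPKM in FB_S, against 93.0, 128 and 42.3 RPKM in YFB_S. It was at 8.24 to 22.6 RPKM in every library of mycelium, knots and primordia, between its levels in both caps. Gene model 445891, 1087 bases long, had 78.2, 63.2 and 86.4 RPKM in FB_CL, against 0.332, 0.323 and 0.0287 RPKM in YFB_C, where replicate 3 had 0 reads and the deposited value is still above 0. In the stipe it had 0.833, 1.20 and 2.24 RPKM in FB_S, against 41.9, 33.8 and 33.4 RPKM in YFB_S. Unlike 415876 it was low in young lamellae, at 0.901 to 1.85 RPKM. Hyphal knots had 2.58, 5.46 and 8.72 RPKM, against 0.209, 0.178 and 0.146 RPKM in mycelium, and that rise was called (log2 change 5.06 ± 0.70 SE, edgeR adjusted p = 1.12e-05).

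The members with the highest mean RPKM in the mature cap with lamellae were 495641 and 478228. Gene model 495641, 600 bases long, had 1902, 1947 and 1677 RPKM in FB_CL, against 419.7, 437 and 357 RPKM in YFB_C. It had 339, 323 and 363 RPKM in FB_S, against 887, 376 and 836 RPKM in YFB_S, where replicate 2 lay close to the mature stipe. In mycelium, knots and primordia it stood at 718 to 1419 RPKM. Gene model 478228, 820 bases long, had 1292, 1042 and 1637 RPKM in FB_CL, against 249, 254 and 474 RPKM in YFB_C, and 326, 266 and 248 RPKM in FB_S, against 631, 1012 and 591 RPKM in YFB_S. Its level in mycelium was low and uneven, at 3.79 to 43.2 RPKM.

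Members differed in where else they were transcribed. The highest group median was in FB_CL for 76 members, VM for 70, YFB_L and YFB_S for 37 each, P1 for 10, and H and P2 for 3 each. VM was the highest group for 29.7% of members and 16.6% of all gene models, FB_CL for 32.2% and 17.2%. FB_S was the lowest group for 157 members (66.5%) and YFB_C for 26, while VM was the lowest for 19. The pair of highest groups was VM and YFB_L in 72 members, FB_CL and YFB_S in 53, and FB_CL and YFB_L in 35. These are counts of a description, since the rule sets YFB_C and FB_S low.

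**Figure D3:**
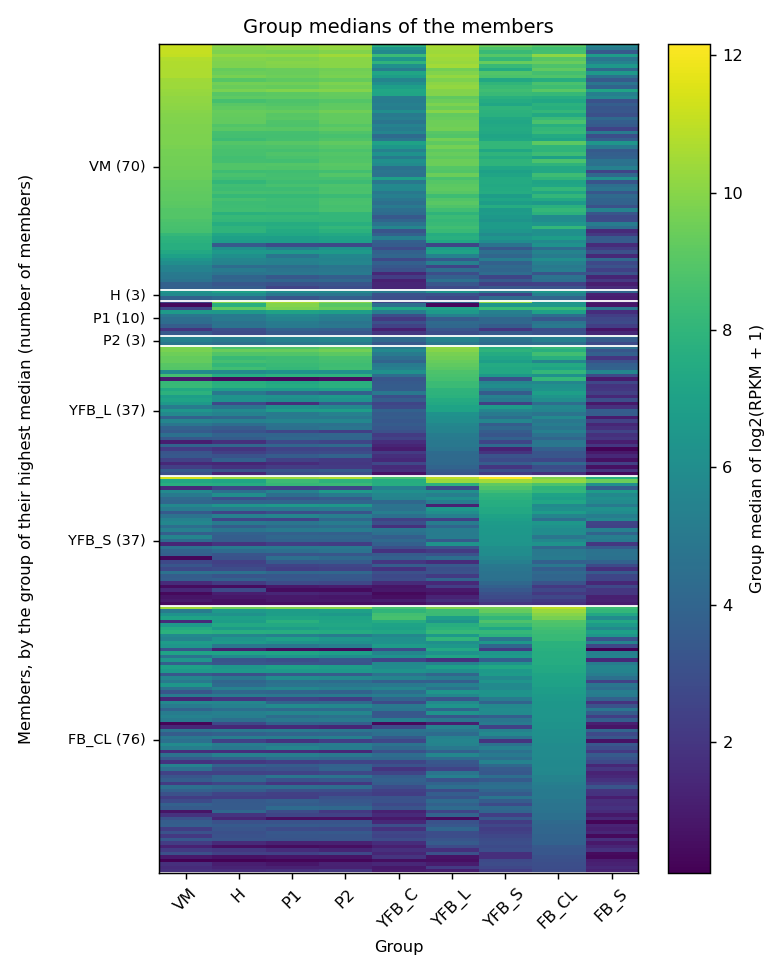
Group medians of log2(RPKM + 1) for the 236 members (rows) in the 9 groups (columns), with members arranged by the group of their highest median and then by that level. The 70 members highest in VM are bright in VM, H, P1, P2 and YFB_L and dark in YFB_C and FB_S, while the 76 highest in FB_CL are dimmer in the other groups.

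The 70 members highest in mycelium were abundant. Their median level, over gene models, was 203 RPKM in FB_CL and 34.9 RPKM in YFB_C, and 11.9 RPKM in FB_S and 162 RPKM in YFB_S. It was 758 RPKM in VM, 382 RPKM in each of H and P1, 447 RPKM in P2 and 563 RPKM in YFB_L. The median in the mature cap with lamellae was thus below those in primordia and young lamellae. That it was below mycelium follows from the choice of these members. Over the 29 libraries, which all gene models share, their pairwise correlation of log2(RPKM + 1) had a median of 0.948 (quartiles 0.875 and 0.973), against 0.377 among the other 166 members. Both the rule and the split by highest group drew on these libraries, so part of this likeness is built in. They were short, with a median of 714 bases, against 1393 bases for the other members and 1315 bases for all gene models of the table. Of these 70, 50 had a mean log2(RPKM + 1) over all libraries of at least 7. The 874 gene models of the table at that level had a median of 858 bases. Whether these members were short beyond what goes with their level was not tested.

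The libraries that stood apart also did so in these 70 gene models. Their median was 242 RPKM in YFB_L replicate 1, against 563 and 611 RPKM in replicates 2 and 3. It was 13.6 RPKM in YFB_C replicate 3, against 50.4 and 34.4 RPKM in replicates 1 and 2. In the mature stipe the values were 12.2, 10.2 and 14.9 RPKM, against 223, 80.5 and 158 RPKM in the young stipe. The FB_CL libraries, at 216, 178 and 216 RPKM, lay above each YFB_C library and below each YFB_L library. The part of dissection in the spread between libraries was not tested.

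The 76 members highest in FB_CL had a median log2(RPKM + 1) of 6.06 there, where all gene models had a median of 3.89. Their median was 3.46 in YFB_C, 2.40 in FB_S and 4.56 in YFB_S. In VM, H, P1 and P2 it lay between 3.80 and 3.94, above the young cap and the mature stipe and below the young stipe. The 37 members highest in YFB_S had 5.10 in FB_CL and 3.63 in YFB_C, and 3.97 in FB_S and 6.44 in YFB_S, with 3.45 to 3.92 in the other groups. In these the mature stipe lay just above mycelium, which had 3.92. The 37 highest in YFB_L had 7.11 there, 5.61 in VM and 5.53 in FB_CL, and were lowest in FB_S at 2.02.

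Since the mature cap was taken with lamellae, each member's level in young lamellae bears on its cap difference. YFB_L was at least 1 above YFB_C on the log2(RPKM + 1) scale in 152 of 236 members, within 1 of it in 78, and at least 1 below it in 6. Over all gene models 19.4% were at least 1 above, and since the rule set YFB_C low in members, both values are a description. The median difference, YFB_L minus YFB_C, was 1.70 in members and 0.00 in all gene models. In 67 members FB_CL was at least 1 below YFB_L, in 97 within 1 of it, and in 72 at least 1 above it. In 64 of the 72, YFB_L was less than 1 above YFB_C. Whatever the level in young lamellae, the presence of lamellae and the age of the cap cannot be told apart in FB_CL against YFB_C for any of the 236 members. With YFB_L in place of YFB_C in the rule, 188 gene models were found, 72 of them members.

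**Figure D4:**
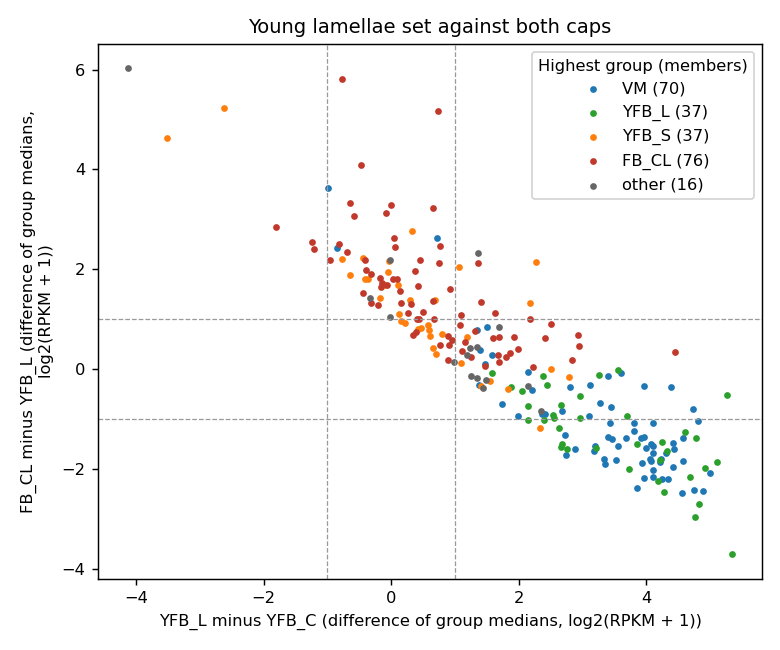
Each point is 1 of the 236 members, with YFB_L minus YFB_C on the horizontal axis and FB_CL minus YFB_L on the vertical axis, as differences of group medians of log2(RPKM + 1), coloured by the group of the highest median. Both axes add up to the cap difference of at least 1, which sets the lower left edge of the cloud, and members highest in VM or YFB_L lie mostly at the lower right.

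Steps between groups that take no part in both differences can be tested. These are young lamellae against stage 2 primordia, hyphal knots against mycelium, stage 1 primordia against knots, and stage 2 against stage 1 primordia. The limit on the highest group used all groups, and took out gene models with a strong peak in 1 of them. Over VM, H, P1, P2 and YFB_L together, an F test in edgeR with the largest difference at least 2-fold called 114 of 236 members (48.3%, background 59.3%), and 122 were not called. In none of the 4 single steps were 150 members called (63.6%, background 53.7%).

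Young lamellae against stage 2 primordia gave the most calls. Of 236 members 52 were higher in YFB_L (22.0%, background 18.5%) and 14 were lower (5.93%, background 16.0%, or 34.5% in either direction) by edgeR's quasi-likelihood test, with a median log2 change of 0.23 in members and 0.11 in all gene models. Of the 66 called, 56 had ranges of CPM, counts scaled to library size with TMM factors, that did not overlap between the groups (23.7% of members, background 29.6%). Without YFB_L replicate 1, which stood apart, 43 members were higher and 21 lower, beside 1911 and 2230 of 12090 gene models. Scaled by library size alone, 38 members were higher and 17 lower, beside 1608 and 2407 gene models. In the gene models with the opposite course, lower in the mature cap and higher in the mature stipe, 13 of 159 were higher and 75 lower in YFB_L, and this difference between the lists was not tested.

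The largest rises were in 444563 and 394620. Gene model 444563, 808 bases long, had 438, 383 and 377 RPKM in YFB_L, against 0.337, 0.516, 0.909 and 0.464 RPKM in P2 (log2 change 9.52 ± 0.73 SE, edgeR adjusted p = 1.23e-09). It had 181, 266 and 299.5 RPKM in FB_CL, against 10.3, 8.94 and 5.29 RPKM in YFB_C. In the young stipe it was uneven, at 19.5, 0.547 and 7.33 RPKM. Gene model 394620, 832 bases long, had 199.9, 163 and 155 RPKM in YFB_L, against 0.750, 0.0518, 0.507 and 0.0796 RPKM in P2 (log2 change 8.98 ± 0.85 SE, edgeR adjusted p = 1.77e-08). With 1 library left out, its change ran from 8.59 to 9.71, the highest without P2 replicate 1. It had 144, 228 and 206 RPKM in FB_CL, against 8.07, 5.96 and 6.49 RPKM in YFB_C, and in FB_S it had 0 reads in replicates 1 and 2.

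The largest falls were in 409106 and 360951. Gene model 409106, 718 bases long, had 0.174, 0.310 and 0.464 RPKM in YFB_L, against 827, 353, 629 and 426 RPKM in P2 (log2 change -10.85 ± 1.22 SE, edgeR adjusted p = 1.94e-07). It had 84.4, 17.5 and 117 RPKM in FB_CL, against 46.8, 21.9 and 3.26 RPKM in YFB_C, and these groups overlapped, since FB_CL replicate 2 lay below YFB_C replicates 1 and 2. Gene model 360951, 912 bases long, had 1.78, 1.09 and 1.34 RPKM in YFB_L, against 120.3, 54.4, 86.0 and 92.7 RPKM in P2 (log2 change -5.99 ± 0.53 SE, edgeR adjusted p = 6.16e-09). It overlapped between FB_CL (46.6, 56.7 and 56.9 RPKM) and YFB_C (25.8, 19.7 and 58.2 RPKM), where replicate 3 was the highest of the 6. The cap difference of neither was called by edgeR. In both gene models the level in the mature cap with lamellae was thus far above that in young lamellae.

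Hyphal knots against mycelium called 15 members higher (6.36%, background 11.0%) and 25 lower (10.6%, background 8.98%, or 19.9% in either direction) in H by edgeR's test. The median log2 change was -0.47 in members and -0.02 in all gene models. Of the 25 lower members 9 were among the 76 highest in FB_CL and 6 among the 37 highest in YFB_S. A further 8 were among the 70 highest in VM, whose direction in this step is set by that choice. Of the 15 higher members 7 were among those highest in FB_CL, 4 in P1, and 2 each in YFB_L and YFB_S. These counts are a description.

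Among the members that rose was 409106 again, with 208, 929.7 and 124 RPKM in H, against 0.415, 0.318 and 0.309 RPKM in VM (log2 change 10.31 ± 1.22 SE, edgeR adjusted p = 1.25e-06). Replicate 3 held the high value, and without it the change was 8.94. Gene model 439300, 610 bases long, had 675, 1209 and 935 RPKM in H, against 5.94, 5.09 and 4.42 RPKM in VM (log2 change 7.51 ± 0.59 SE, edgeR adjusted p = 2.71e-09). It remained at 628 to 1941 RPKM in the primordia and stood at 81.6, 89.4 and 68.3 RPKM in FB_CL, against 4.89, 9.54 and 5.37 RPKM in YFB_C. In the stipe it had 1.10, 4.51 and 1.24 RPKM in FB_S, against 1016, 1141 and 1337 RPKM in YFB_S, with a stipe difference of -8.99, the lowest of the members.

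Among the members that fell was 499423, 1659 bases long, with 10.8, 2.29 and 5.78 RPKM in H, against 95.2, 83.5 and 96.2 RPKM in VM (log2 change -3.87 ± 0.82 SE, edgeR adjusted p = 0.00138). With 1 library left out, its change ran from -4.51, without H replicate 2, to -3.50. In young lamellae it was at 166, 167 and 161 RPKM, against 1.48, 13.5, 18.1 and 7.70 RPKM in P2, and that rise was called too (4.02 ± 0.74 SE on the log2 scale, with an edgeR adjusted p = 9.73e-05). Gene model 494131, 1866 bases long, had 23.4, 11.1 and 28.1 RPKM in H, against 57.7, 770.2 and 41.9 RPKM in VM (log2 change -3.80 ± 0.84 SE, edgeR adjusted p = 0.00191). VM replicate 2 decided this value, and without it the change was -1.25 and not called (edgeR adjusted p = 0.143). It had 225, 261 and 337 RPKM in FB_CL, against 56.4, 70.0 and 97.9 RPKM in YFB_C. In the stipe it had 104, 155 and 97.2 RPKM in FB_S, against 345, 398 and 338 RPKM in YFB_S, a difference that edgeR did not call (adjusted p = 0.0789).

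**Figure D5:**
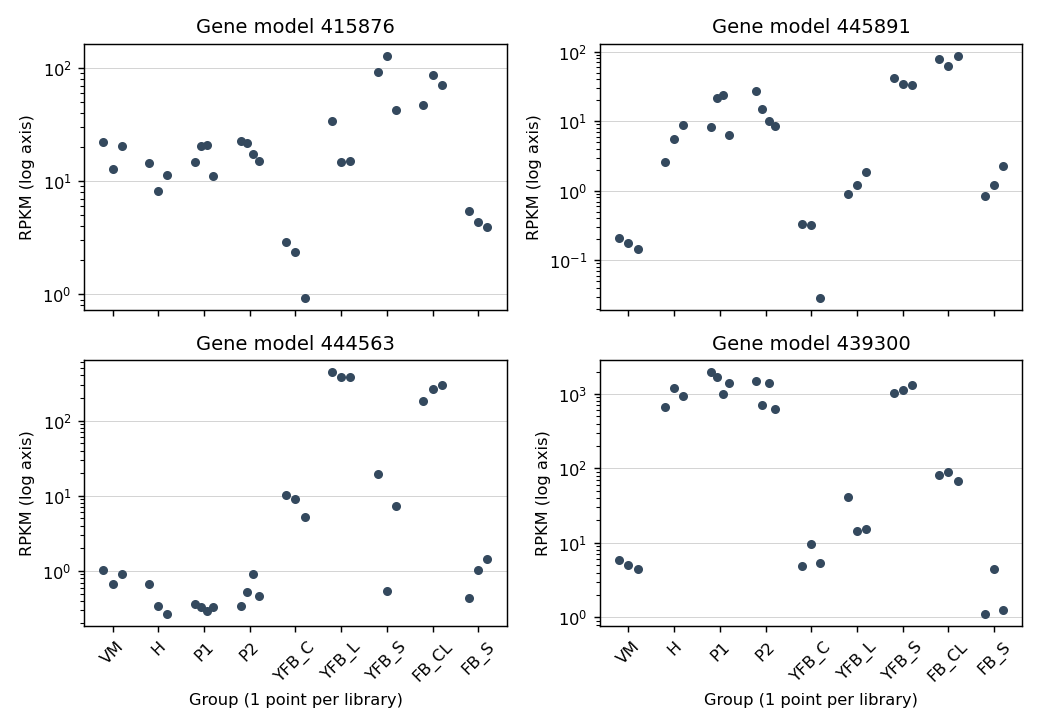
RPKM on a log axis, 1 point per library, in the 9 groups in the order of development for 4 members. Gene models 415876 and 445891 have the largest changes in both parts, 444563 is high in YFB_L (377 to 438 RPKM) and FB_CL, and 439300 is high from H to P2 and in YFB_S (1016 to 1337 RPKM).

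Between hyphal knots and stage 1 primordia, 1 member was higher (0.424%, background 1.01%) and 8 were lower (3.39%, background 4.13%, or 5.14% in either direction) in P1 by edgeR's test. The member called higher was 371855, 1503 bases long, with 15.9, 33.4, 28.3 and 15.6 RPKM in P1, against 5.54, 7.63 and 10.8 RPKM in H (log2 change 1.54 ± 0.33 SE, edgeR adjusted p = 0.00810). It had already been higher in H than in VM, where it was at 0.221, 0.222 and 0.0633 RPKM. Without H replicate 2 the change was 1.34 (edgeR adjusted p = 0.0515). The largest falls were in 367320 and 53649, and neither was called without H replicate 3, the highest H library of both.

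Gene model 367320, 2052 bases long, had 8.47, 7.32, 8.40 and 6.52 RPKM in P1, against 16.2, 95.2 and 9.89 RPKM in H (log2 change -2.40 ± 0.55 SE, edgeR adjusted p = 0.0105), and without H replicate 3 the change was -0.71 (edgeR adjusted p = 0.458). Gene model 53649, 846 bases long, had 6.32, 8.02, 5.67 and 2.14 RPKM in P1, against 8.31, 46.8 and 9.97 RPKM in H (log2 change -1.96 ± 0.52 SE, edgeR adjusted p = 0.0252), and without H replicate 3 the change was -0.67 (edgeR adjusted p = 0.559). The fall of 53649 from H to P1 was also not called without P1 replicate 3 or 4. In VM this gene model had 204, 84.5 and 245 RPKM, and its fall from VM to H was called (log2 change -3.04 ± 0.59 SE, edgeR adjusted p = 0.000632). The count of 9 members, beside 616 gene models in all, moved with single libraries. It was 2 beside 277 without H replicate 3, and 14 beside 1008 without H replicate 4. Without P1 replicate 2 it was 5 beside 232, and without P1 replicate 3 it was 5 beside 290. A fit to the libraries of P1 and H alone called 0 members and 1 of 11411 gene models. Replicate 4 of H, P1 and P2 came from a second flow cell, and the libraries of the first alone gave 15 members beside 1090 gene models.

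Stage 2 against stage 1 primordia called 0 members by edgeR (background 0%), with 3 of 236 at an unadjusted p under 0.05, and 0 by DESeq2 and limma. The median log2 change was 0.13 in members and 0.00 in all gene models. On the log2(RPKM + 1) scale 233 of 236 members had group medians within 1 of each other.

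The members shared few reads with other gene models. The share of their reads placed on 1 gene model only was at least 93.9%, so their values were little affected by near-identical copies. Their median length was 961 bases (quartiles 688 and 1663), against 1315 bases (834 and 1946) for all gene models of the table. Of the members 68 had a mean log2(RPKM + 1) over all libraries of at least 7, a level reached by 874 of the 12003. The median length was 695.5 bases in these 68 and 858 bases in the 874. In the 168 members under that level it was 1351 bases. The range from the lowest to the highest group median was 3.89 in the median member and 2.43 in the median gene model, which the rule itself raises.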

How the data were processed

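The deposited files hold total and unique read counts, TPM and length for 14242 gene models per library, per the file headers. The deposited TPM values were not used, and an RPKM column held 0 throughout. A further deposited table holds log2 RPKM of 12003 gene models. The submitters' processing notes name R 3.0.2, limma 3.18.13 and edgeR 3.4.2. RPKM values printed are 2 to the power of the deposited log2 RPKM, whose scaling TMM factors reproduce. The rule on RPKM computed from counts with TMM factors gave 239 gene models, with all 236 members among them. The factors ran from 0.436 in FB_CL replicate 3 to 1.52 in H replicate 4, and a lower factor raises RPKM. The aligner is not given in the sources used here. The kit (TruSeq v2) does not mark strand, so reads of overlapping antisense genes cannot be separated.

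Members and tests were chosen with earlier results of these data known. Counts were tested with edgeR 4.0.16 in R 4.3.3: filterByExpr over 9 groups (11990 kept, 2252 set aside), TMM, and 1 quasi-likelihood model of all 29 libraries. Calls needed a Benjamini-Hochberg adjusted p under 0.05 over all gene models tested and a change of at least 2-fold. The SE, an approximation, is the size of the log2 change divided by the square root of F. The test was run on simulated counts first.

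Named members were, by rule, the 2 with the largest smaller difference and at least 10 RPKM in FB_CL, the 2 with the highest mean RPKM there, and per step the 2 largest rises and falls among those called with CPM ranges apart and at least 10 RPKM in the higher group. Splits by highest group, and at a mean of 7, were chosen after values were seen. Alternatives were DESeq2 1.42.0, limma 3.58.1, other scaling, filters and thresholds, the replicate number, the flow cell, and each library left out.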

Additional observations from a re-analysis of the deposited data

Results flagged for a closer look

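In groups of 4 libraries, P1 and P2, 30 sets of values were examined for a library far from the other 3, with the gap to the nearest over the whole range above 0.829, and 3 were found. Chance flags about 1 in 20 sets. The median log2(RPKM + 1) of the members was 5.25 in P2 replicate 1, against 5.19, 5.19 and 5.20 in the other 3, a small distance. Gene model 409106 had 522 RPKM in P1 replicate 4, the library of the second flow cell, against 1013, 982 and 946 RPKM in replicates 1 to 3. Gene model 53649 had 6.75 RPKM in P2 replicate 3, against 5.12, 5.12 and 5.35 RPKM in the other 3.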

How the results depend on the processing

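The number of members was 120 at a threshold of 1.5 (log2) and 479 at 1.5-fold for both differences. It ran from 227 to 275 with 1 library left out, and was 319 with a pseudocount of 0.1 and 173 with the mean of YFB_C and YFB_L in place of YFB_C. With library size alone it was 206, of which 120 were members, and the median log2 change of all gene models was -0.78 under that scaling in FB_CL against YFB_C and -0.67 in FB_S against YFB_S (-0.14 in YFB_L against P2, -0.16 in H against VM). It called 136 members in FB_CL against YFB_C. In what follows, calls among all gene models stand in parentheses. At 4-fold the calls were 36 (2076) in YFB_L against P2, 17 (1056) in H against VM, 2 (298) in P1 against H, 129 (2925) in FB_CL against YFB_C, 135 (2832) in FB_S against YFB_S and 67 (4107) in the F test. In P1 against H limma gave 5 (363) with log2(RPKM + 1) and 4 (359) with log2(RPKM + 0.1), the first flow cell alone 15 (1090), and the fit to both groups alone 0 (1); the cause was not tested. With 1 library left out the calls were 58 to 67 (3910 to 4268) in YFB_L against P2, 28 to 47 (1638 to 2712) in H against VM, 2 to 14 (232 to 1008) in P1 against H, 0 (0) in P2 against P1, 204 to 222 (5431 to 5963) in FB_CL against YFB_C, 206 to 221 (5167 to 5776) in FB_S against YFB_S and 94 to 122 (6781 to 7396) in the F test. Deviations of same-numbered libraries correlated at -0.19 to 0.47 over these 6 contrasts, and in no contrast was every pair over 0.1. The highest value was that of replicate 4 in P2 and P1, both from the second flow cell. With the replicate block the calls were 60 (4010), 35 (2330), 5 (434), 0 (0), 219 (5736), 216 (5542) and 102 (6924) in that order. Both libraries that stood apart left out, an alternative added after the data were seen, gave 66 (4295), 51 (2884), 12 (1022), 0 (0), 217 (6131), 223 (5870) and 129 (7599). The 21 called changes of named members in the 4 single steps kept their sign in every alternative run, and 38 of 882 values were no longer called. For each change 29 alternatives left out 1 library, mostly one outside the groups compared, which could move the value little. The losses were uneven: 478228 and 367320 in H against VM were each not called in 8 alternatives and called in 34.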
